A study of Mus musculus with 5 samples.

Results

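Marrow endothelial cells line the arterioles, capillaries and sinusoids of bone marrow. They were examined among the cells sorted from mouse femur marrow for a stromal lineage reporter, where they came along in a small number. They were chosen by their transcripts: a cell needed at least 500 genes, at least 1000 unique molecular identifiers (UMIs, each standing for 1 captured transcript), under 25% of UMIs from mitochondrial genes, under 150 UMIs of Cxcl12 per 10000, and a UMI of at least 4 of the 8 endothelial genes Pecam1, Cdh5, Kdr, Emcn, Egfl7, Tie1, Plvap and Stab2. The rule gave 1266 endothelial cells among the 47829 cells that passed the limits on genes, UMIs and mitochondrial share, and among 57968 deposited cells. Levels of those 8 genes and of Cxcl12 selected the cells and are therefore given as a description only.

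All mice carried Lepr-cre and R26R-tdTomato, a reporter switched on by Cre recombinase, and tdTomato-positive cells were sorted from femurs after the distal growth plates and proximal ends had been taken off. Lepr-cre is a driver used to mark the perivascular reticular stroma of marrow. The aged-injury mice were 18 months old, 1 week after bone marrow ablation, an operation that empties the marrow cavity. The exhausted mice were 15 weeks old and had been ablated at 9 and again at 13 weeks. The naive mice were 15 weeks old and had been ablated once, at 13 weeks. The aged mice, at 18 months, and the control mice, at 15 weeks, had no surgery. Each group was 1 library, the number of animals behind it was not given, and so no difference between groups could be tested. Intervals below are 95% intervals for counting error only, and they do not hold the spread between animals. The labels list 1 library for each group with no batch, so library and group cannot be told apart.

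Endothelial cells of marrow carry oxygen and nutrients, admit leukocytes through selectins and other adhesion proteins, and sustain blood-forming cells by secreted factors. Arterial and capillary endothelium feeds the sinusoids, wide thin-walled vessels whose scavenger receptors clear waste from blood. After injury, new vessels are led by tip cells, which answer vascular endothelial growth factor and secrete apelin, while the cells behind them divide and lay down a basement membrane of type IV collagen, laminin and nidogen.

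The results below turn in part on the apelin gene Apln and on the selectin genes Selp and Sele. Their proximal promoters, the 250 bases before the annotated start in RefSeq on GRCm38.p6, are shown because 1 gene was higher after ablation and the others lower. Capitals mark the core letters AGGAAG, or CTTCCT on the other strand, of sites for ETS factors, the family to which the endothelial regulators Erg and Fli1 belong.
Apln, chrX:48034854-48035103, minus strand: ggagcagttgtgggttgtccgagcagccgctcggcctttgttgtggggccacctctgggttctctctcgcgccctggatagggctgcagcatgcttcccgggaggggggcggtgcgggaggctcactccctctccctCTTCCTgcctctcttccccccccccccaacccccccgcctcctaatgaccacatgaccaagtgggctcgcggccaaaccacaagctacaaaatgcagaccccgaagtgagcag
Selp, chr1:164115014-164115263, plus strand: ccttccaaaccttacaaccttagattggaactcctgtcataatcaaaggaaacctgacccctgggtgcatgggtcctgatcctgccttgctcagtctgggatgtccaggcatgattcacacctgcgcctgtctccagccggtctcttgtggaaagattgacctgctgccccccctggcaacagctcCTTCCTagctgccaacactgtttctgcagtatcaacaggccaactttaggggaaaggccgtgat
Sele, chr1:164047984-164048233, plus strand: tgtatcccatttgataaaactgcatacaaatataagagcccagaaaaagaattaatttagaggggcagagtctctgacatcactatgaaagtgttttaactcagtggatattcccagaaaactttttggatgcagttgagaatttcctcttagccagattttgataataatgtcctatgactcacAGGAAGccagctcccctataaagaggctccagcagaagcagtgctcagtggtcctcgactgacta
Each of the 3 windows held 1 match. It lay 113 to 108 bases before the start in Apln, 64 to 59 bases before it in Selp and 65 to 60 bases before it in Sele. These letters are common: 29.5% of all 32851 promoter windows of this length held them on either strand. Of the matched genes, 4 of 5 rule genes, 8 of 14 other endothelial markers, 5 of 15 tip cell genes, 5 of 8 venous genes and 4 of 12 basement membrane genes had a match, against 32.3% of all 27025 genes. A match is a description of letters and not evidence of binding.

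The label of endothelium was checked with 30 endothelial markers that the rule had not used, such as Erg, Flt1, Ptprb, Cldn5, Esam, Tek and Robo4. A median of 23 of the 30 was detected per cell in aged-injury, 21 in exhausted, 23 in naive, 20 in aged and 21 in control, and 97.2% of all endothelial cells had at least 10. Summed over cells and scaled to a total of fixed size (CPM, UMIs of a gene per 1000000 UMIs of those cells in that library), the median marker stood at 303 CPM in aged-injury, 298 in exhausted, 355 in naive, 219.6 in aged and 295 in control endothelial cells. In reticular cells of the same libraries the median was between 1.03 and 2.42 CPM, and in leukocytes between 0.451 and 1.10 CPM. Between 28 and 30 of the 30 markers were at least 2-fold above both. The chosen cells thus carried the endothelial programme in all 5 libraries. At the threshold, the 41 cells with 4 of the 8 rule genes had a median of 9 of the 30 markers, and the 85 cells just outside it, with 3 of 8, had a median of 4. Of the cells just inside, 24.4% carried at least 4 of 10 pan-leukocyte markers, and of those just outside 36.5%.

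**Figure D1:**
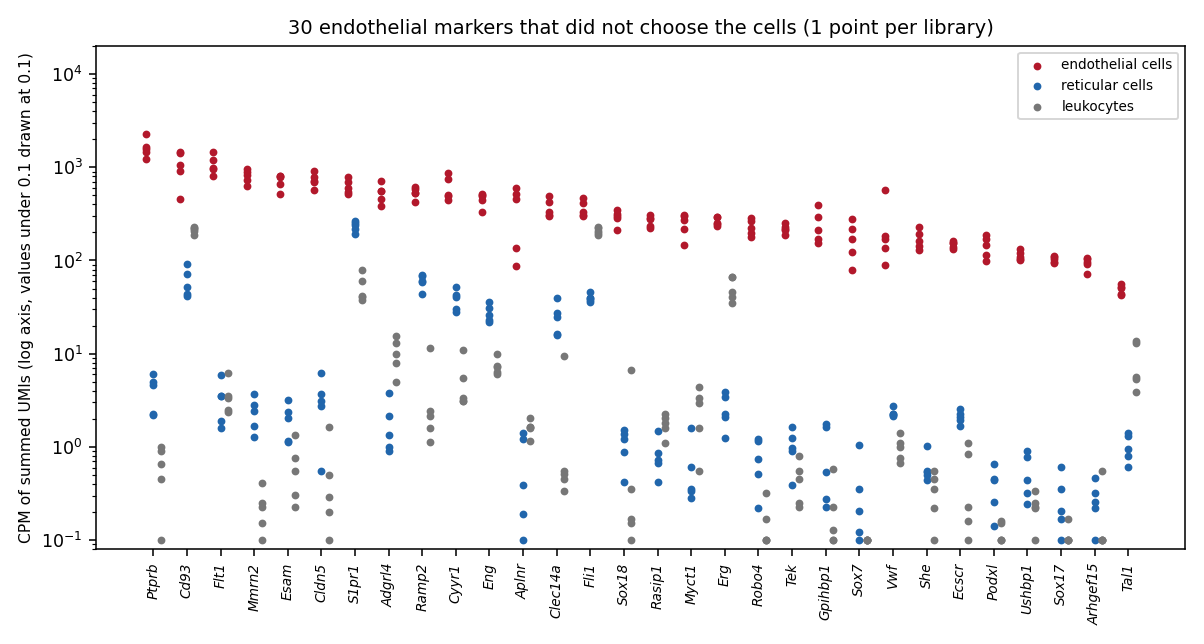
Level of 30 endothelial markers that did not choose the cells, in CPM on a log axis, with 1 point per library for endothelial cells (red), reticular cells (blue) and leukocytes (grey). Endothelial points lie above both other types for nearly all markers, with 28 to 30 markers at least 2-fold above both in a library.

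Transcripts of other cell types were present in these cells, and doublets were not removed. At least 6 of 15 reticular markers were found in 410 of 676 endothelial cells of aged-injury, 49 of 197 of exhausted, 100 of 280 of naive, 46 of 58 of aged and 44 of 55 of control. The summed level of the 15 markers was 4717 CPM in aged-injury, 2078 in exhausted, 2720.3 in naive, 6969.7 in aged and 5969 in control, all 15 being detected in each library, against 69777 to 99995 CPM in reticular cells. It was highest in the uninjured libraries. The 13 neutrophil markers summed to 454 CPM in aged-injury, 9176 in exhausted, 1810.0 in naive, 6525 in aged and 9128 in control, lowest in aged-injury, with 1 marker at 0 in aged-injury, aged and control. The 12 osteoblast markers summed to 3601 CPM in aged-injury, 353 in exhausted, 635 in naive, 4134 in aged and 513 in control, high in both libraries of old mice. The 14 pericyte and smooth muscle markers summed to 1846 CPM in aged-injury, 1686 in exhausted, 1134 in naive, 3038 in aged and 1952 in control, within a 3-fold range. Of them 4 were at 0 in exhausted, 2 in naive, 2 in aged and 6 in control. Tagln and Kcnj8 of this list were also leading genes of the venous-like and of a sinusoidal-like cluster described below. The part of carried transcripts in the pericyte sum was therefore not known and was not tested. Leaving out the clusters led by neutrophil, osteoblast and pericyte genes took away 110 cells, while 649 of the 1266 carried at least 6 reticular markers, so the part of carried reticular transcripts in most levels below was not tested.

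The reporter itself was checked in the endothelial cells. A tdTomato UMI was found in 46.4% of them in aged-injury, 31.5% in exhausted, 37.1% in naive, 36.2% in aged and 27.3% in control. In leukocytes the share was 17.2% in aged-injury, 2.45% in exhausted, 3.75% in naive, 2.99% in aged and 4.11% in control. In reticular cells it was between 40.5% and 50.7%. Median depths were 7204.5 to 9098.5 UMIs in endothelial cells, 7061 to 10334 in leukocytes and 7605 to 10053.5 in reticular cells. The endothelial share was thus above that of leukocytes in each library and below that of reticular cells. By level, tdTomato stood at 86.3 CPM in aged-injury, 55.5 in exhausted, 68.1 in naive, 79.7 in aged and 68.2 in control endothelial cells. Reticular cells had 76.2 CPM in aged-injury, 68.7 in exhausted, 76.0 in naive, 85.6 in aged and 89.7 in control. Endothelial cells were thus above reticular cells in aged-injury only. The part of reticular transcripts in the endothelial share and level was not tested. Lepr, the leptin receptor, stood at 206 CPM in aged-injury, 101 in exhausted, 207 in naive, 424 in aged and 418 in control in endothelial cells, highest in the uninjured libraries. In reticular cells it stood between 2466 and 4765 CPM.

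Endothelial cells made up a larger share of the sorted cells in each ablated library than in its uninjured counterpart. They were 3.47% (3.21 to 3.73%) of filtered cells in aged-injury, 3.14% (2.72 to 3.6%) in exhausted, 5.34% (4.75 to 5.99%) in naive, 0.767% (0.583 to 0.991%) in aged and 0.594% (0.448 to 0.773%) in control. Naive stood highest, the intervals of aged-injury and exhausted overlapped, and so did those of aged and control. Without cells carrying leukocyte or reticular markers the shares were 1.36% (1.20 to 1.53%) in aged-injury, 2.10% (1.76 to 2.49%) in exhausted, 3.32% (2.85 to 3.84%) in naive, 0.132% (0.0634 to 0.243%) in aged and 0.119% (0.0594 to 0.213%) in control, so that exhausted then stood above aged-injury. The share depends on how many reticular cells were sorted beside them. Among cells that were not reticular it was 8.20% (7.61 to 8.81%) in aged-injury, 4.63% (4.02 to 5.31%) in exhausted, 8.64% (7.69 to 9.66%) in naive, 2.66% (2.02 to 3.42%) in aged and 1.64% (1.24 to 2.13%) in control. By that measure exhausted lay between the once-ablated and the uninjured libraries, but leukocytes were 0.595% of filtered cells in aged-injury, 42.3% in exhausted, 18.3% in naive, 6.19% in aged and 16.8% in control. Of cells that were neither reticular nor leukocytes, a measure chosen after seeing the data, endothelial cells were 8.31% (7.72 to 8.94%) in aged-injury, 12.3% (10.7 to 14.0%) in exhausted, 12.3% (11 to 13.7%) in naive, 3.38% (2.58 to 4.35%) in aged and 3.05% (2.31 to 3.96%) in control. The ablated libraries stayed above the uninjured ones, and the order among the ablated ones did not hold. A sort on tdTomato sets which endothelial cells could be seen, and so neither share is a share of marrow.

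**Figure D2:**
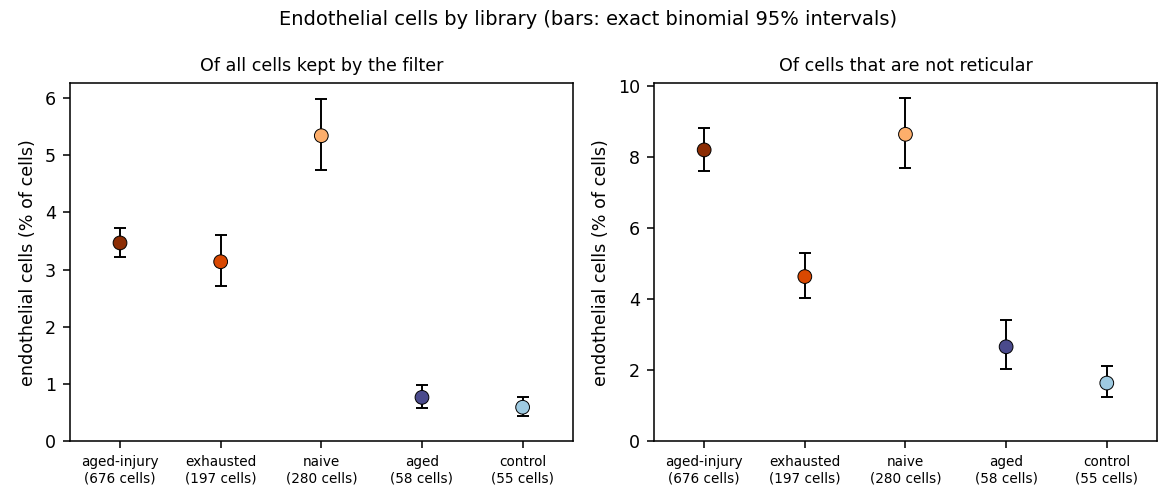
Endothelial cells as a percentage of all filtered cells (left) and of cells that were not reticular (right) in the 5 libraries, with exact binomial 95% intervals as bars and the number of endothelial cells under each library. All 3 ablated libraries lie above both uninjured ones, with naive at 5.34% and control at 0.594% of filtered cells.

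The 676, 197 and 280 endothelial cells of aged-injury, exhausted and naive held 7389921, 1747293 and 2582823 UMIs, against 514511 in the 58 cells of aged and 483660 in the 55 of control. Libraries were compared in pairs by the ratio of CPM, with an exact interval for counts, for genes with at least 20 CPM and 30 UMIs in the higher of them, and a gene counted as called when it was at least 2-fold apart. Of 5884 genes measured for aged-injury against aged, 671 (11.4%) were higher and 258 (4.38%) lower. For naive against control, 590 of 5784 (10.2%) were higher and 206 (3.56%) lower. Exhausted against control gave 666 of 5908 (11.3%) higher and 213 (3.61%) lower. The excess of higher calls in these comparisons depended on the floor: 30 UMIs are 62.0 CPM in control and 58.3 CPM in aged but 4.06 to 17.2 CPM in the ablated libraries. With the same CPM floor in both libraries, aged-injury against aged had 258 genes higher and 258 lower (6.75% each), naive against control 159 higher (4.4%) and 206 lower (5.70%), and exhausted against control 134 higher (3.73%) and 213 lower (5.92%). The median log2 ratio of all genes was then 0.11, 0.05 and 0.02 in these comparisons, against 0.27, 0.24 and 0.23 with the first floor. Exhausted against naive called 215 of 7341 genes higher (2.93%) and 165 lower (2.25%). Aged against control called 153 of 3614 in each direction (4.23% each), and aged-injury against naive 202 of 7276 higher (2.78%) and 198 lower (2.72%). These shares are the background for the counts of gene lists below.

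Over all endothelial cells, basement membrane genes were higher after ablation, most of them in aged-injury and naive and fewer in exhausted. Sums within clusters, where the order of the ablated libraries was another, are given below. Of 16 measured genes of this list, 11 were at least 2-fold higher and 2 lower in aged-injury against aged, and 10 higher and 1 lower in naive against control. In exhausted against control 3 were higher and 1 lower, a smaller count than after a single ablation. The list also holds Vwf, which endothelium secretes but which is no structural part of the membrane, and which was lower in all 3 comparisons. The median log2 ratio was 1.66, 1.23 and 0.45 in these comparisons. With the same CPM floor in both libraries, 10 of 15, 9 of 15 and 3 of 15 genes were at least 2-fold higher. Exhausted and naive were both set against the 1 control library here.

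Col4a1, which encodes the α1 chain of type IV collagen, the network of the basement membrane, stood at 2841 CPM in aged-injury, 1813 in exhausted, 3500.4 in naive, 412 in aged and 798 in control. All ablated libraries were above both uninjured ones, naive highest and aged lowest. The ratio was 6.90 (6.02 to 7.93) for aged-injury against aged, 4.39 (3.96 to 4.87) for naive against control and 2.27 (2.04 to 2.53) for exhausted against control. Its partner chain Col4a2 followed the same order, at 1433 CPM in aged-injury, 934 in exhausted, 1893 in naive, 282 in aged and 529 in control. Nid2 encodes nidogen 2, which links the collagen network to laminin. It had 160.1 CPM in aged-injury, 68.7 in exhausted, 138 in naive, 11.7 in aged and 20.7 in control, a ratio of 13.7 (6.29 to 37.5) in old and of 6.67 (3.58 to 14.0) in young mice. The laminin chain genes Lama4 and Lamb1 were 5.71 (3.76 to 9.13) and 6.36 (3.96 to 11) times their level in aged, and 2.85 (2.19 to 3.79) and 3.09 (2.22 to 4.43) times their level in control. Exhausted reached 1.27 (0.956 to 1.72) times control for Lama4 and 1.39 (0.974 to 2.04) times for Lamb1, with intervals that held 1.
Col18a1, the precursor of endostatin, had 452 CPM in aged-injury, 168 in exhausted, 251 in naive, 48.6 in aged and 78.6 in control and was highest in aged-injury. Sparc, a collagen-binding matrix protein, had 7652 CPM in aged-injury, 5707 in exhausted, 6837 in naive, 2268 in aged and 2857 in control, above both uninjured libraries after every ablation, and 2519 to 6088 CPM in reticular cells. Not all of the list went this way. Lamb2, the laminin β2 chain, had 36.8 CPM in aged-injury, 41.8 in exhausted, 41.0 in naive, 83.6 in aged and 68.2 in control and was lower in aged-injury than in aged, with a ratio of 0.440 (0.318 to 0.623). Reticular cells also make type IV collagen: Col4a1 stood there at 1123 CPM in aged-injury, 1083 in exhausted, 1397 in naive, 962 in aged and 1047 in control, a narrow range beside that of endothelial cells. Nid2 stood there at 111 to 143 CPM and Lamb1 at 318 to 441 CPM, above endothelial cells of aged and control.

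**Figure D3:**
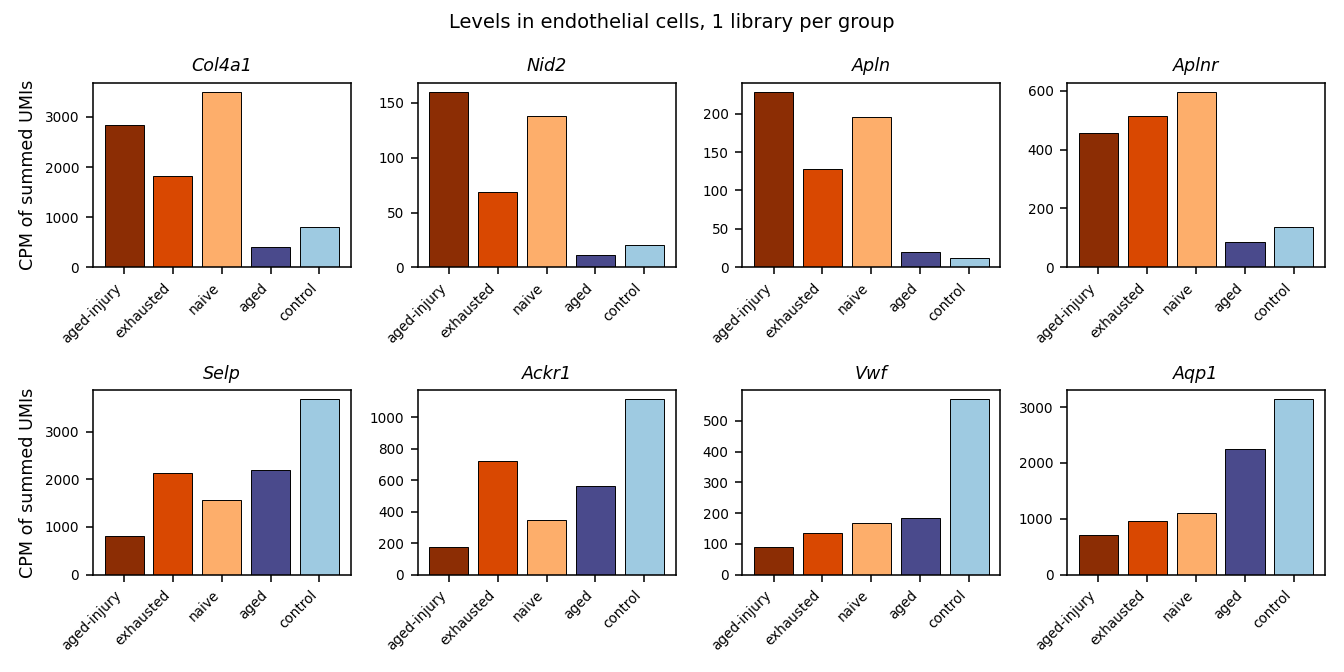
Level of 8 genes in endothelial cells of the 5 libraries, in CPM of summed UMIs, with 1 bar per library and no error bars since each group is 1 library. Col4a1, Nid2, Apln and Aplnr are higher in the 3 ablated libraries, and Vwf and Aqp1 are highest in control.

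Apelin and its receptor were among the genes furthest apart. Apln, the gene of the secreted peptide apelin whose promoter is printed above, stood at 228 CPM in aged-injury, 128 in exhausted, 195 in naive, 19.4 in aged and 12.4 in control. Ablated libraries were far above uninjured ones with no overlap. The ratio was 11.7 (6.37 to 24.5) for aged-injury against aged, 15.7 (7.18 to 43.1) for naive against control and 10.3 (4.67 to 28.5) for exhausted against control. Only 6 UMIs of Apln were counted in control and 10 in aged, which gives the wide intervals. Aplnr, the apelin receptor, had 456 CPM in aged-injury, 516 in exhausted, 596 in naive, 87.5 in aged and 136 in control, and its ratios were 5.22 (3.89 to 7.17), 4.37 (3.41 to 5.68) and 3.78 (2.94 to 4.93) in the same comparisons. In reticular cells Apln did not pass 4.89 CPM and Aplnr did not pass 1.42 CPM in any library.

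Other tip cell and sprouting genes were also higher after ablation over all endothelial cells. More cells of a type and more RNA per cell cannot be told apart in these sums, and sums within clusters are given below. Of the list, 8 of 16 measured genes were at least 2-fold higher in aged-injury against aged, 9 of 14 in naive against control and 3 of 13 in exhausted against control, and none was 2-fold lower. The list also holds Apln and Nid2, described above. Some of its genes, Kcne3 among them, passed the filter only through the ablated library. With the same CPM floor 6 of 12, 6 of 10 and 2 of 9 were at least 2-fold higher. Kcne3, a potassium channel subunit used as a tip cell marker, had 37.8 CPM in aged-injury, 5.72 in exhausted, 60.4 in naive, 0 in aged and 4.14 in control. With no UMI in aged, aged-injury was at least 6.47-fold higher against a floor of 3 counts in that library. Naive was 14.6 (3.98 to 122) times control, which had 2 UMIs. Cxcr4, the receptor for Cxcl12, had 90.7 CPM in aged-injury, 54.9 in exhausted, 91.8 in naive, 17.5 in aged and 8.27 in control, low in both uninjured libraries, against 284 to 511 CPM in leukocytes. Mcam (CD146), an adhesion protein of vessel walls, had 222 CPM in aged-injury, 133 in exhausted, 232 in naive, 44.7 in aged and 84.8 in control, with ratios of 4.97 (3.30 to 7.86) in old and 2.73 (1.99 to 3.85) in young mice. Dll4, the Notch ligand of tip cells and arteries, differed less: its ratio was 1.81 (1.43 to 2.32) in old and 2.08 (1.54 to 2.88) in young mice. Esm1, a widely used tip cell marker, did not follow the list, at 77.5 CPM in aged-injury, 8.58 in exhausted, 36.0 in naive, 89.4 in aged and 60.0 in control. Reticular cells held more of it than endothelial cells, between 1047 and 1382 CPM, and the part of carried transcripts in its endothelial level was not tested.

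Several receptors and signalling genes outside that list shared the pattern. Ednrb, the type B endothelin receptor, had 196 CPM in aged-injury, 83 in exhausted, 332 in naive, 35.0 in aged and 20.7 in control, highest in naive. Its ratio was 5.62 (3.54 to 9.50) in old mice, 16.1 (8.69 to 33.6) in naive and 4.01 (2.12 to 8.55) in exhausted against control. Piezo2, a channel opened by membrane stretch, had 118 CPM in aged-injury, 83.6 in exhausted, 214 in naive, 3.89 in aged and 41.4 in control, with 2 UMIs in aged and a ratio of 30.3 (8.37 to 251) there. Naive was 5.17 (3.31 to 8.53) times control. Mest, an imprinted gene of the hydrolase fold family, had 324 CPM in aged-injury, 60.7 in exhausted, 87.5 in naive, 33.0 in aged and 8.27 in control, highest in aged-injury. Kit, the stem cell factor receptor, also found on capillary endothelium, had 54.5 CPM in aged-injury, 25.8 in exhausted, 52.3 in naive, 5.83 in aged and 8.27 in control. Nes, the intermediate filament nestin, stood at 163 CPM in aged-injury, 59.5 in exhausted, 125 in naive, 36.9 in aged and 12.4 in control and was lowest in control. Ephb1, an ephrin receptor, had 62.0 CPM in aged-injury, 23.5 in exhausted, 51.5 in naive, 0 in aged and 6.20 in control, and with no UMI in aged it was at least 10.6-fold higher in aged-injury. Nox4, an oxidase that makes hydrogen peroxide, had 28.3 CPM in aged-injury, 8.58 in exhausted, 19.0 in naive, 0 in aged and 0 in control, with no UMI in either uninjured library. Kit and Nox4 passed the filter only through an ablated library. The floor of 30 UMIs is 58.3 CPM in aged and 62.0 CPM in control, so genes at such levels could not be called the other way. Cd109, a membrane protein that binds TGF-beta, had 77.7 CPM in aged-injury, 51.5 in exhausted, 72.0 in naive, 3.89 in aged and 35.1 in control, with 2 UMIs in aged. Prdm1, a transcriptional repressor, was 13.3 (4.49 to 65.0) times control in naive. Ednrb, Piezo2, Mest and Ephb1 were low in reticular cells, where Ednrb did not pass 6.32 CPM, Piezo2 21.3 CPM, Mest 8.07 CPM and Ephb1 1.47 CPM.
Among single genes higher in young mice after ablation, Dusp6, a phosphatase that ends ERK signalling, had 330.4 CPM in aged-injury, 302 in exhausted, 367 in naive, 237 in aged and 80.6 in control, so that control stood alone below the other 4 libraries. Its ratio was 4.55 (3.30 to 6.44) for naive and 3.75 (2.70 to 5.33) for exhausted against control, and 1.39 (1.16 to 1.69) for aged-injury against aged. Spry2, an inhibitor of the same pathway, had 84.3 CPM in aged-injury, 92.1 in exhausted, 78.6 in naive, 52.5 in aged and 14.5 in control, with control again lowest.

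The receptors that receive vascular growth signals differed little beside these genes. Of the 12 measured in aged-injury against aged, 1 was at least 2-fold higher, Aplnr, and none lower. In naive against control Aplnr and Unc5b, a netrin receptor, were higher and none lower. Flt1, a decoy receptor for vascular endothelial growth factor, had 974 CPM in aged-injury, 965 in exhausted, 1198 in naive, 812 in aged and 1470.0 in control, within a 2-fold range. Tek, the angiopoietin receptor, had 219 CPM in aged-injury, 252 in exhausted, 226 in naive, 189 in aged and 211 in control, also within it. Among 22 measured endothelial transcription factors 1 was higher, Sox7, and 1 lower, Klf2, in aged-injury against aged, and among 21 in naive against control 1 was higher, Hlx, and none lower. Klf2, a factor induced by blood flow, had 700.4 CPM in aged-injury, 1038 in exhausted, 805 in naive, 1502 in aged and 1135 in control. Sox7 had 279 CPM in aged-injury, 171 in exhausted, 216 in naive, 79.7 in aged and 122 in control, lowest in aged.

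Dividing cells were found in the ablated libraries and in aged, but not in control. Cells with a UMI of Mki67 or Top2a, genes of mitosis, were counted among endothelial cells with fewer than 4 leukocyte markers. They were 98 of 670 in aged-injury, 14.6% (12 to 17.5%), 18 of 173 in exhausted, 10.4% (6.28 to 15.9%), and 29 of 266 in naive, 10.9% (7.42 to 15.3%). In aged they were 4 of 53, 7.55% (2.09 to 18.2%), and in control 0 of 53, which allows a share of up to 5.66% at 3 counts. Thinned to 2000 UMIs per cell, the shares were 8.27% in aged-injury, 6.43% in exhausted, 2.28% in naive, 5.88% in aged and 0% in control. Before thinning the intervals of aged-injury, exhausted, naive and aged overlapped, and after it naive stood below aged, and the thinned intervals of aged-injury (6.29 to 10.6%) and naive (0.842 to 4.90%) did not overlap. Those of exhausted (3.25 to 11.2%) and aged (1.23 to 16.2%) overlapped with both. In summed UMIs Mki67 had 93.9 CPM in aged-injury, 89.3 in exhausted, 75.9 in naive, 13.6 in aged and 0 in control, against 12.1 CPM in aged-injury, 5.46 in exhausted, 4.41 in naive, 3.51 in aged and 13.9 in control in reticular cells. Top2a had 116 CPM in aged-injury, 122 in exhausted, 87.5 in naive, 3.89 in aged and 0 in control, and aged-injury was 29.8 (8.22 to 246) times aged, where 2 UMIs were counted. Unlike the cell counts, these sums and the list counts include endothelial cells with at least 4 leukocyte markers. Such cells were 6 of 676 in aged-injury, 24 of 197 in exhausted, 14 of 280 in naive, 5 of 58 in aged and 2 of 55 in control. Their part in the sums was not tested. Of the cell division list, 13 of 17 measured genes were at least 2-fold higher in aged-injury against aged, 7 of 11 in naive against control and 14 of 18 in exhausted against control, with none lower. Most of these genes passed the filter only through the ablated library. With the same CPM floor in both libraries 5 were measured in each comparison, of which 3, 4 and 4 were at least 2-fold higher. Leaving out the clusters led by genes of another cell type lowered the median log2 ratio less that of all genes from 2.27 to 1.64 in aged-injury against aged and from 2.16 to 1.49 in exhausted against control.

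Genes of venules and of leukocyte capture were lower in ablated libraries. Of the venous list, 6 of 11 measured genes were at least 2-fold lower in aged-injury against aged, 3 of 12 in naive against control and 3 of 12 in exhausted against control, and none was 2-fold higher. Selp, P-selectin, which slows leukocytes on the vessel wall, stood at 819 CPM in aged-injury, 2136 in exhausted, 1564 in naive, 2187 in aged and 3678 in control. Aged-injury was lowest and control highest. Its ratio was 0.374 (0.351 to 0.399) for aged-injury against aged, 0.425 (0.402 to 0.450) for naive and 0.581 (0.549 to 0.615) for exhausted against control. Sele, E-selectin, had 195 CPM in aged-injury, 501 in exhausted, 386 in naive, 774 in aged and 591 in control, a ratio of 0.252 (0.225 to 0.282) in old and 0.653 (0.572 to 0.747) in young mice. Ackr1, a chemokine-binding protein of venules, had 175 CPM in aged-injury, 723 in exhausted, 350.4 in naive, 564 in aged and 1116 in control, and its ratios were 0.310 (0.273 to 0.354), 0.314 (0.282 to 0.350) and 0.647 (0.585 to 0.717). Exhausted thus held more Ackr1 and Selp than naive. Vwf, von Willebrand factor, which tethers platelets, had 88.8 CPM in aged-injury, 136 in exhausted, 168 in naive, 185 in aged and 571 in control, with control alone above 200 CPM. Lrg1, a secreted glycoprotein of venous endothelium, had 359 CPM in aged-injury, 1259 in exhausted, 679 in naive, 1602 in aged and 1356 in control and was low in aged-injury and naive but not in exhausted. Vcam1, an integrin ligand, was lower in aged-injury against aged, 0.352 (0.318 to 0.390), but was 1.06 (0.937 to 1.20) in naive against control. Vcam1 is also a gene of reticular cells, at 826 to 1404 CPM there, and the part of carried transcripts in its level was not tested. Fewer cells of a type and less RNA per cell cannot be told apart in these sums.

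Targets of NF-kappa-B, a factor activated by inflammatory signals, were lower as well. In aged-injury against aged 10 of 17 measured genes of that list were at least 2-fold lower, and in naive against control 5 of 17, with none higher. In exhausted against control 2 of 20 were lower, Il6 and Icam1, and 3 higher, Cxcl2, Ccl7 and Csf3. The list shares Selp, Sele, Vcam1, Icam1 and Ackr1 with the venous list, so the counts are not separate. Lcn2, counted in it, is a neutrophil product and had 19.4 CPM in aged-injury, 653 in exhausted, 55.4 in naive, 579 in aged and 1131 in control, lowest in aged-injury as were the neutrophil markers. Nfkbia, the inhibitor that NF-kappa-B itself induces, had 667 CPM in aged-injury, 924 in exhausted, 911 in naive, 1497 in aged and 1683 in control, below both uninjured libraries after each ablation. Icam1, an adhesion protein, had 603 CPM in aged-injury, 595 in exhausted, 727 in naive, 1020.4 in aged and 1303 in control. Il6, a cytokine, had 63.5 CPM in aged-injury, 76.7 in exhausted, 103 in naive, 155 in aged and 281 in control, highest in control. Irf1, a factor induced by interferon, had 466 CPM in aged-injury, 640.4 in exhausted, 591 in naive, 1423 in aged and 1720.2 in control, with ratios of 0.328 (0.303 to 0.356), 0.343 (0.315 to 0.374) and 0.372 (0.340 to 0.408) against the uninjured libraries. Other interferon genes differed between the comparisons. Of that list, which includes Irf1, 9 of 23 measured genes were at least 2-fold higher and 2 lower in aged-injury against aged, and 1 of 20 higher and 5 lower in naive against control. With the same CPM floor in both libraries, 6 of 18 were higher and 2 lower in aged-injury against aged. In naive against control 1 of 16 was then higher and 5 lower. Ifit3, an antiviral gene, had 28.8 CPM in aged-injury, 22.3 in exhausted, 23.2 in naive, 5.83 in aged and 18.6 in control, lowest in aged.
Dissociation and sorting raise inflammatory genes. Of immediate early genes, which mark such handling, 5 of 19 measured were at least 2-fold lower and none higher in aged-injury against aged, and 2 of 20 were lower and 1 higher in naive against control. In venous-like cells, described below, the 20 genes summed to 36773 CPM in aged-injury, 35190.4 in exhausted, 45879.5 in naive, 47807 in aged and 25152 in control, higher in naive than in control. The part of handling was not tested.

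Rcan1, Rgs16, Aqp1, Olr1 and Mt2 were further genes lower in naive against control. Rcan1 and Mt2 were also leading genes of the venous-like cluster described below, which took a larger share of cells in control. Fewer such cells and less RNA per cell cannot be told apart here either. Rcan1, an inhibitor of calcineurin, had 105 CPM in aged-injury, 145 in exhausted, 171 in naive, 391 in aged and 703 in control, with ratios of 0.270 (0.231 to 0.317), 0.243 (0.210 to 0.281) and 0.207 (0.175 to 0.244). Rgs16, which shortens G protein signals, had 90.4 CPM in aged-injury, 93.3 in exhausted, 89.4 in naive, 241 in aged and 488 in control, similar in the 3 ablated libraries. Aqp1, a water channel of endothelium, had 710.2 CPM in aged-injury, 956 in exhausted, 1102 in naive, 2253 in aged and 3141 in control, and every ablated library was below both uninjured ones. Olr1, a receptor for oxidised lipoprotein, had 19.1 CPM in aged-injury, 18.3 in exhausted, 40.3 in naive, 25.3 in aged and 161 in control, but its log2 ratio in naive against control was -0.52 as a mean over cells in place of -2.00. Mt2, a metallothionein, had 216 CPM in aged-injury, 187 in exhausted, 364 in naive, 608 in aged and 1408 in control. Reticular cells held 592 to 1208 CPM of Mt2, less than endothelial cells of control.

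Of genes of sinusoidal endothelium fewer were 2-fold lower in exhausted than in the other ablated libraries. Of 13 measured genes of that list, which holds the rule gene Stab2, 5 were at least 2-fold lower and none higher in aged-injury against aged, and likewise in naive against control. In exhausted against control 1 was lower and none higher. Exhausted against naive had Tfpi and Dnase1l3 at least 2-fold higher of the other 12 measured, and none lower. Stab2, the hyaluronan scavenger receptor, had 501 CPM in aged-injury, 923 in exhausted, 414 in naive, 962 in aged and 527 in control, but it belonged to the rule and is described only. Dnase1l3, a secreted nuclease, had 194 CPM in aged-injury, 298 in exhausted, 101 in naive, 550.0 in aged and 368 in control, lowest in naive and highest in aged. Its ratio was 0.353 (0.311 to 0.402) for aged-injury against aged, 0.276 (0.227 to 0.335) for naive against control and 2.93 (2.52 to 3.42) for exhausted against naive. Without cells carrying leukocyte or reticular markers the log2 ratio in exhausted against naive was 2.46 in place of 1.55. Fcgr2b, an inhibitory Fc receptor of sinusoids, had 243 CPM in aged-injury, 362 in exhausted, 194 in naive, 927 in aged and 544 in control. Tfpi, the inhibitor of tissue factor, had 878 CPM in aged-injury, 1605 in exhausted, 683 in naive, 1578 in aged and 1279.8 in control, and exhausted was 2.35 (2.22 to 2.50) times naive. Fmo1, a flavin monooxygenase, had 66.0 CPM in aged-injury, 117 in exhausted, 57.7 in naive, 237 in aged and 335 in control, and Fgf23, a phosphate-regulating hormone otherwise made by osteocytes, had 41.1 CPM in aged-injury, 215 in exhausted, 110.3 in naive, 288 in aged and 221 in control. Both were highest in the uninjured libraries, apart from exhausted Fgf23, which was close to control.

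A second ablation was addressed by exhausted against naive, both 2 weeks after the last surgery. Among the genes furthest higher in exhausted were leading genes of the sinusoidal-like cells described below, Ubd, Clca3a1, C5ar2, Lipg and Afap1l2. The cluster that they led took a larger share of cells in exhausted than in naive. More such cells and more RNA per cell cannot be told apart in these ratios. Ubd, a ubiquitin-like protein induced by cytokines, was 3.13 (2.71 to 3.62) times naive. Lipg, endothelial lipase, which cleaves lipoprotein phospholipids, was 2.42 (2.11 to 2.76) times naive, at 104 CPM in aged-injury, 332 in exhausted, 137 in naive, 309 in aged and 242 in control. Cxcl10, an interferon-induced chemokine, was 2.42 (2.15 to 2.72) times naive. Without cells that carried at least 4 leukocyte or 6 reticular markers, which left 132 exhausted and 174 naive cells, the log2 ratio of Ubd was 2.69 in place of 1.64, that of Lipg 2.35 in place of 1.27 and that of Cxcl10 1.90 in place of 1.27. Lower in exhausted, over all endothelial cells, were tip cell and matrix genes. At least 2-fold lower were 4 of 16 measured sprouting genes and 5 of 16 basement membrane genes, against 2.25% of all genes, and none was higher. The sprouting list holds Nid2, described above with basement membrane genes, so the counts may not be separate. Kcne3 was 0.0948 (0.0446 to 0.179) times naive, Ednrb 0.25 (0.208 to 0.298) times, Igfbp3, a carrier of insulin-like growth factors, 0.325 (0.277 to 0.381) times and Piezo2 0.391 (0.324 to 0.470) times. Col4a1 was 0.518 (0.497 to 0.539) times naive. Hlx, a homeobox factor, had 24.8 CPM in aged-injury, 14.9 in exhausted, 68.9 in naive, 17.5 in aged and 12.4 in control, with naive standing alone above the other 4 libraries. Cell division genes did not follow matrix genes: 4 of 18 were at least 2-fold higher in exhausted and none lower, but their median less that of all genes was 0.39 over all cells and -0.54 without the cells carrying other markers.

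**Figure D4:**
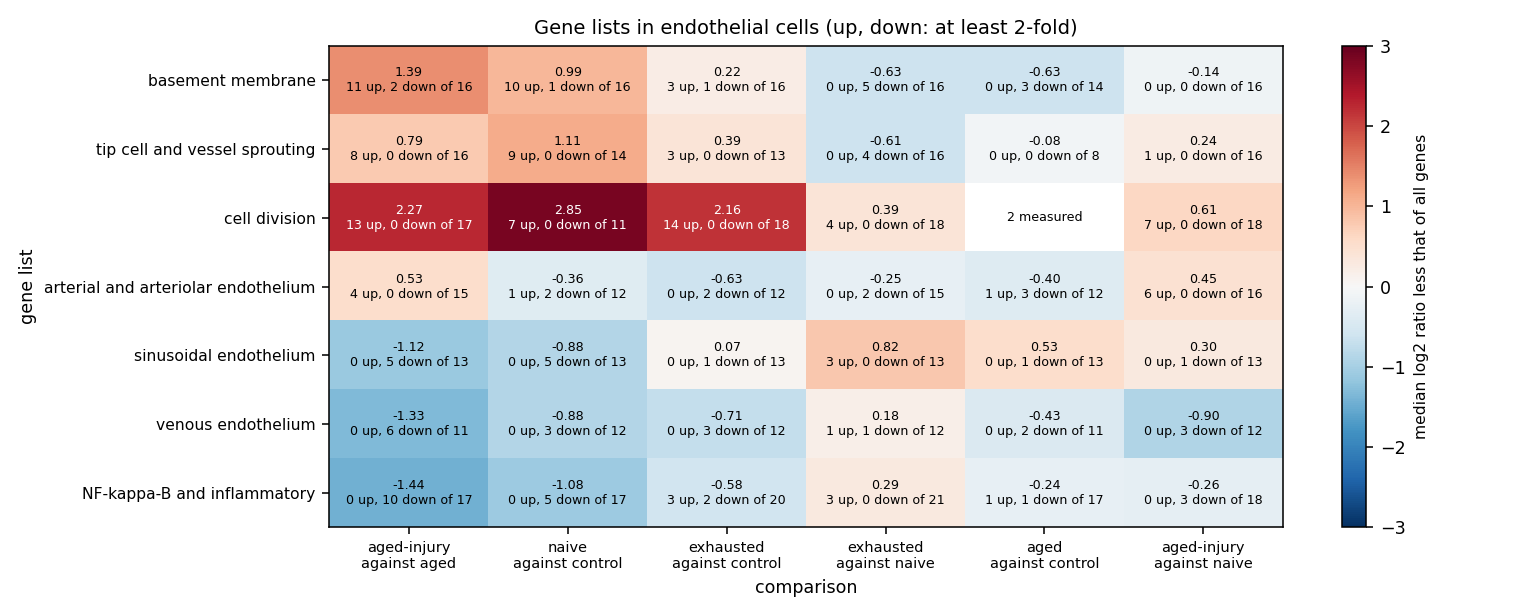
Median log2 ratio of 7 gene lists less that of all measured genes, in colour and as the upper number, for 6 comparisons in endothelial cells, with the number of genes at least 2-fold up or down of those measured beneath. Basement membrane stands at 1.39 and 0.99 in aged-injury against aged and naive against control and at -0.63 in exhausted against naive. The sinusoidal list holds the rule gene Stab2. Only 2 cell division genes were measured in aged against control, too few for a median.

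Age was addressed by aged against control, both uninjured, with 58 and 55 cells. Of basement membrane genes, 3 of 14 measured were at least 2-fold lower in aged and none higher, against 4.23% of all genes in each direction, and the median log2 ratio was -0.72, beside -0.09 over all genes. Col4a1 was 0.516 (0.435 to 0.612) times control and Lama4 0.357 (0.208 to 0.592) times. The called members were Lama4, Lamb1 and Vwf, at 0.324 (0.254 to 0.410) times control for Vwf. Prcp, a lysosomal carboxypeptidase, had 321 CPM in aged-injury, 381 in exhausted, 446 in naive, 95.2 in aged and 292 in control, so that aged stood alone below the other 4 libraries. Higher in aged were Birc3, an inhibitor of cell death induced by NF-kappa-B, at 2.92 (2.10 to 4.11) times control, Dusp6 at 2.94 (2.04 to 4.33) and Ern1, a sensor of unfolded protein in the endoplasmic reticulum, at 3.99 (2.56 to 6.43). Birc3 had 68.7 CPM in aged-injury, 144 in exhausted, 80.1 in naive, 295 in aged and 101 in control, aged standing alone above the rest. Ern1 had 43.0 CPM in aged-injury, 45.2 in exhausted, 35.2 in naive, 206 in aged and 51.7 in control, again with aged alone. The NF-kappa-B list as a whole had 1 of 17 genes higher and 1 lower, and the sinusoidal list 0 of 13 higher and 1 lower. Tip cell genes had 0 of 8 in either direction. Igkc, an immunoglobulin light chain gene, was 456 (261 to 884) times control, at 7.71 CPM in aged-injury, 39.5 in exhausted, 681 in naive, 11323 in aged and 24.8 in control. Leukocytes of aged held 11212 CPM of it, and without the clusters led by genes of another cell type the log2 ratio was 0.85 in place of 8.83. That setting also left 61 genes at least 2-fold higher in aged in place of 153.

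Ablation in old and in young mice was compared through comparisons that share no library. Of 4928 genes measured both in aged-injury against aged and in naive against control, 144 were at least 2-fold higher in both, 29.5% of the 488 higher in old and 34.4% of the 418 higher in young mice. At least 2-fold lower in both were 91, 46.0% of the 198 lower in old and 53.5% of the 170 lower in young mice. Of all 4928 genes, 488 were higher and 198 lower in old mice, and 418 higher and 170 lower in young mice. The overlap was counted with the first floor, on which the excess of higher calls depended, and not with the same CPM floor. Called in opposite directions were 15 genes lower in old and higher in young mice, and 3 higher in old and lower in young mice, Col8a1, Il1rn and Slc8a1. Among the 15, picked out after their values were seen, were the B cell genes Cd79a, Igha, Ighm and Igkc, the antigen presentation genes H2-Aa and H2-Eb1 and the bone matrix genes Mmp13 and Spp1, which are not endothelial markers. No test of the difference between ages exists with 1 library each.
Aged-injury against naive differs both in age and in time after surgery, 1 week against 2. Basement membrane genes had none of 16 at least 2-fold apart, and tip cell genes 1 of 16 higher, Esm1. Venous genes were lower in aged-injury, 3 of 12, and arterial genes higher, 6 of 16, against 2.72% and 2.78% of all genes. Among arterial genes Gja4, a connexin of arterial endothelium, had 61.4 CPM in aged-injury, 12.6 in exhausted, 13.6 in naive, 31.1 in aged and 35.1 in control and was 4.53 (3.21 to 6.59) times naive. Sema3g, a semaphorin of arteries, had 128 CPM in aged-injury, 52.7 in exhausted, 53 in naive, 25.3 in aged and 74.4 in control and was 2.42 (2.02 to 2.91) times naive, but 0.713 (0.491 to 1.06) in naive against control. Ly6a, the Sca-1 antigen, had 863 CPM in aged-injury, 490.5 in exhausted, 345 in naive, 620.0 in aged and 914 in control and was 2.50 (2.33 to 2.69) times naive. Cd34, a sialomucin, had 694 CPM in aged-injury, 454 in exhausted, 769 in naive, 212 in aged and 465 in control, 3.28 (2.71 to 4) times aged in aged-injury. Of the capillary list, none of 11 was 2-fold apart here, while Ramp3, Cav1, Sparcl1 and Kit were higher and Aqp1 lower in aged-injury against aged. Of 20 heat shock and chaperone genes 3 were higher in aged-injury than in naive, Hspa1a, Hspa1b and Hspe1, and none lower: Hspa1a had 308 CPM in aged-injury, 73.8 in exhausted, 103 in naive, 282 in aged and 151 in control and Hspa1b had 366 CPM in aged-injury, 83.6 in exhausted, 113 in naive, 379 in aged and 149 in control. These copies are nearly identical, and reads can be split between them. Reticular cells had the same order of libraries for Hspa1a, with 218 CPM in aged-injury and 32.0 in naive. Depp1, a gene induced by FOXO factors, had 149.7 CPM in aged-injury, 263 in exhausted, 671 in naive, 270.2 in aged and 174 in control, naive standing highest, and aged-injury was 0.223 (0.207 to 0.241) times naive. Without the cells carrying other markers, the log2 ratio of aged-injury against naive was 1.79 for Hspa1a, 1.91 for Hspa1b and -1.92 for Depp1.

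Factors by which endothelium acts on blood-forming cells and stroma were mixed. Of 24 measured in aged-injury against aged 5 were at least 2-fold higher and 2 lower, of 22 in naive against control 5 and 2, and of 20 in exhausted against control 1 and 4. With the same CPM floor 2 of 17 were higher and 2 lower in aged-injury against aged, 2 of 16 and 2 in naive against control, and 0 of 16 and 4 in exhausted against control. Kitl, the stem cell factor, had 502 CPM in aged-injury, 247 in exhausted, 374 in naive, 589 in aged and 430.1 in control, and exhausted was 0.574 (0.485 to 0.680) times control. Reticular cells, a main source of Kitl, held 2227 to 2622 CPM. Igfbp3 had 393 CPM in aged-injury, 109 in exhausted, 336 in naive, 91.3 in aged and 114 in control, high in aged-injury and naive and not in exhausted, and 246 to 633 CPM in reticular cells. Dkk2, an inhibitor of Wnt signalling, had 24.8 CPM in aged-injury, 4.58 in exhausted, 21.7 in naive, 0 in aged and 2.07 in control, with 0 and 1 UMI in aged and control. Bmp4, a bone morphogenetic protein, had 56.6 CPM in aged-injury, 59.5 in exhausted, 80.9 in naive, 126 in aged and 114 in control, with aged-injury 0.448 (0.344 to 0.591) times aged and 119.6 to 339 CPM in reticular cells. Gas6, a ligand of TAM receptors, had 122 CPM in aged-injury, 113 in exhausted, 151 in naive, 222 in aged and 229.5 in control, highest in the uninjured libraries, and 1365 to 2427 CPM in reticular cells.

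Endothelial cells of all libraries were clustered together without the 2175 genes that were at least 2-fold apart in any comparison, so that those genes could not set the clusters. Names follow markers, under rules set after the clusters had been seen. Of 8 clusters, 1 was venous-like, 2 sinusoidal-like, 1 arterial-like, 1 tip cell-like and 1 unnamed. The remaining pair was led by genes of other cells: 102 cells by leukocyte and bone-forming stroma genes such as Ngp, S100a8 and Col1a1, and 8 by the pericyte genes Rgs5 and Notch3. The arterial-like cluster, led by Sema3g and Ednrb, also held dividing cells, with 20 of 23 cell division genes raised in it, and 11 of 18 tip cell genes. Sema3g was found in 39.0% of its cells, so its share is not one of arterial cells alone.
The venous-like cluster took 9.47% (64 cells) in aged-injury, 17.3% (34 cells) in exhausted, 14.6% (41 cells) in naive, 24.1% (14 cells) in aged and 40% (22 cells) in control. Control had the highest share, 40% (27.0 to 54.1%), and aged-injury the lowest, 9.47% (7.37 to 11.9%). The arterial-like cluster took 33.0% (223 cells) in aged-injury, 17.3% (34 cells) in exhausted, 28.9% (81 cells) in naive, 3.45% (2 cells) in aged and 7.27% (4 cells) in control. Clustering on all genes gave other clusters, among them a capillary and type H-like one led by Ednrb and Nid2, and an arterial-like one led by Gja4 and Gja5 with 6.51% of cells in aged-injury, 2.03% in exhausted, 2.14% in naive, 1.72% in aged and 5.45% in control. The narrower arterial-like share was thus not higher in exhausted and naive than in control. Its defining genes differ between libraries, so these shares are a description only. Of the sinusoidal-like clusters, the one led by Dnase1l3 and C5ar2 took 5.77% (39 cells) in aged-injury, 24.9% (49 cells) in exhausted, 5.36% (15 cells) in naive, 24.1% (14 cells) in aged and 12.7% (7 cells) in control, highest in exhausted and aged. The other, led by Hilpda and Adamts5, took 29.6% (200 cells) in aged-injury, 22.8% (45 cells) in exhausted, 25.7% (72 cells) in naive, 15.5% (9 cells) in aged and 18.2% (10 cells) in control. The tip cell-like cluster took 4.73% (32 cells) in aged-injury, 0.508% (1 cell) in exhausted, 3.57% (10 cells) in naive, 0% (0 cells) in aged and 0% (0 cells) in control. At 3 counts, a count of 0 allows a share of up to 5.17% in aged and up to 5.45% in control.

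**Figure D5:**
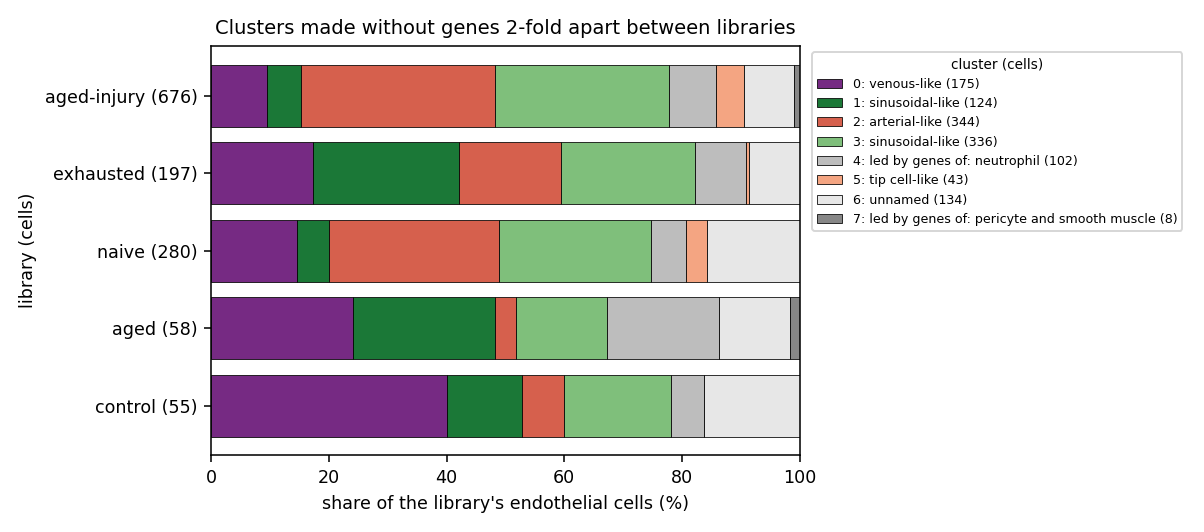
Share of each library's endothelial cells, in percent, in 8 clusters made without the genes at least 2-fold apart between libraries, with libraries down the page and cluster sizes in the key. The venous-like cluster takes 9.47% of aged-injury cells and 40% of control cells, and the arterial-like one 33.0% of aged-injury and 7.27% of control cells. The arterial-like cluster also holds dividing cells and raised tip cell genes, so its share is not one of arterial cells alone.

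Levels were then read within clusters. In venous-like cells, 64 of aged-injury, 34 of exhausted, 41 of naive, 14 of aged and 22 of control, the 17 basement membrane genes summed to 10001 CPM in aged-injury, 10402 in exhausted, 10134 in naive, 5781 in aged and 6653 in control. In sinusoidal-like cells of both clusters, 239, 94, 87, 23 and 17 of the same libraries, they summed to 12391 CPM in aged-injury, 13783 in exhausted, 16433 in naive, 6988 in aged and 9617 in control. The ablated libraries were thus above the uninjured ones in both classes. In venous-like cells exhausted was not below aged-injury or naive in this sum, and in sinusoidal-like cells exhausted lay between them. Col4a1 in venous-like cells was 2.69 (2.14 to 3.42) times aged in aged-injury and 2.03 (1.71 to 2.41) times control in naive. In sinusoidal-like cells the ratios were 3.74 (2.89 to 4.92) and 3.17 (2.60 to 3.89). In venous-like cells tip cell genes summed to 1291 CPM in aged-injury, 1517 in exhausted, 1166 in naive, 1114 in aged and 1083 in control. In sinusoidal-like cells they summed to 1756 CPM in aged-injury, 1700 in exhausted, 2325 in naive, 1241.5 in aged and 1643 in control. Naive lay close to control in venous-like cells, and exhausted close to control in sinusoidal-like cells. Aplnr in sinusoidal-like cells had 445 CPM in aged-injury, 629 in exhausted, 793 in naive, 33.9 in aged and 193 in control, and in venous-like cells 308 CPM in aged-injury, 467 in exhausted, 217 in naive, 278 in aged and 129.8 in control, where aged-injury was 1.10 (0.775 to 1.61) times aged, an interval that held 1.
Venous genes differed less within venous-like cells than over all endothelial cells. The cluster was named by venous genes, Vwf and Fgl2 among its leading genes. Like levels of them within it were thus favoured in advance and are a description only. The 12 venous genes summed to 10292 CPM in aged-injury, 13099 in exhausted, 14599 in naive, 15005 in aged and 15123 in control in them. Vwf had a ratio of 0.917 (0.726 to 1.17) for aged-injury against aged and 0.919 (0.775 to 1.09) for naive against control, and Ackr1 1.14 (0.932 to 1.40) and 0.906 (0.772 to 1.06). Selp remained lower in aged-injury, at 0.594 (0.548 to 0.644) times aged, while naive had 0.863 (0.810 to 0.920) times control. In sinusoidal-like cells Ackr1 was 0.223 (0.179 to 0.279) and 0.237 (0.200 to 0.282) in these comparisons, Aqp1 0.117 (0.102 to 0.135) and 0.115 (0.0911 to 0.145), and Dnase1l3 0.435 (0.373 to 0.510) and 0.284 (0.229 to 0.354). The cluster led by Hilpda held most sinusoidal-like cells of aged-injury, naive and control, and the one led by Dnase1l3 most of those of exhausted and aged. The NF-kappa-B list summed to 10787 CPM in aged-injury, 13765 in exhausted, 16143 in naive, 15313 in aged and 17214 in control in venous-like cells and to 3890.5 CPM in aged-injury, 6107 in exhausted, 4169 in naive, 7334 in aged and 6017 in control in sinusoidal-like cells, lowest in aged-injury in both.

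Arterial-like cells were too few for such values in aged and control, with 2 and 4 cells.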

How the data were processed

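Unique molecular identifier (UMI) counts per gene and cell were used as deposited by the authors, 1 matrix per library, for 5 libraries made on BD Rhapsody. The submitters' processing notes name GRCm39 and Seurat 5.1; no source at hand names the aligner or counter. Endothelial cells were chosen by the rule in the results, and doublets were not removed. Their UMIs were summed per library and scaled to CPM. With 1 library per group no test was possible. Shares have exact Clopper-Pearson 95% intervals and ratios exact conditional binomial ones, which cover counting error only, and a count of 0 is given the limit of 3 counts. At least 2-fold apart counted as called, with 20 CPM and 30 UMIs in the higher library. A library at 0 was set to 3 counts for a bound. Clusters came from scanpy 1.11.5 (1500 variable genes, 20 components, 15 neighbours, Leiden resolution 0.5) and were made again without genes 2-fold apart. The scaling alternative used TMM factors from edgeR 4.0.16. Genes named were the 12 furthest apart in each direction by the bound of the interval nearest 1, detected in at least 10% of cells of the higher library, and members of the lists. Scripts were tested on simulated data. Members and lists were chosen with earlier results of these data known. Promoter sequences are RefSeq's on GRCm38.p6, another build than that of the counts, matched by symbol. All 5 labelled groups were used, though the design text counts 4. Across libraries 21 cell labels were shared, none of them between endothelial cells of 2 libraries. Some genes that the naming rule and lists give are not reported here.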

Additional observations from a re-analysis of the deposited data

Results flagged for a closer look

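Genes are given here whose difference after ablation ran one way in old and the other way in young mice, the difference between the ages not being tested since each group is 1 library. Igkc, an immunoglobulin chain gene of B cells, had a log2 ratio of -10.52 in aged-injury against aged and of 4.78 in naive against control. Cfd, which encodes adipsin, had -3.29 in aged-injury against aged and 2.30 in naive against control. Med24, a Mediator subunit gene, had -2.47 in aged-injury against aged and 2.92 in naive against control. Without the clusters led by genes of another cell type, the log2 ratio in aged-injury against aged was -5.81 for Igkc, -3.40 for Cfd and -0.02 for Med24.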

How the results depend on the processing

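No paired analysis was possible because each group is 1 library, and for the same reason no library could be left out. Endothelial shares of filtered cells were higher in every ablated library than in either uninjured one under all alternatives. They were 3.86% in aged-injury and 0.992% in aged with no limit on Cxcl12, 2.82% in aged-injury and 2.65% in exhausted with a mitochondrial share under 10%, and 3.77% in aged-injury after thinning. Without cells carrying leukocyte or reticular markers they were 1.36% in aged-injury, 2.10% in exhausted, 3.32% in naive, 0.132% in aged and 0.119% in control. That setting left 10 aged and 11 control cells, so its gene ratios were not run for the 4 comparisons with those libraries. Leaving out the clusters led by genes of another cell type was chosen after seeing the data, as was the same CPM floor. Without those clusters the aged-injury share was 3.15%, 61 genes were higher in aged against control and 109 lower in aged-injury against naive. It also turned the median of the capillary list less that of all genes, in aged against control, to 0.048 in place of -0.27, the cause of which was not tested.

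Counts followed the filter. With at least 10 UMIs and no CPM filter, genes higher and lower numbered 1454 and 1188 in aged-injury against aged, 1429 and 477 in naive against control, 1410 and 497 in exhausted against control, 572 and 644 in exhausted against naive, 713 and 565 in aged against control, and 1084 and 720 in aged-injury against naive. With at least 50 CPM, genes higher numbered 293 in aged-injury against aged, 214 in naive against control and 200 in exhausted against control. Genes higher and lower then numbered 101 and 67 in exhausted against naive and 83 and 87 in aged-injury against naive. With the same CPM floor, genes higher numbered 258 in aged-injury against aged, 159 in naive against control and 134 in exhausted against control. As a mean over cells, 130 genes were lower in aged-injury against naive. The number of clusters was 14 at resolution 1.0, and clusters led by other cell types' genes held 8.69% of cells when genes 2-fold apart were left out. Of the named genes' ratios under the alternatives, 550 kept direction and size, 74 moved and 0 reversed. These counts pool unlike settings: with TMM scaling all 144 ratios stayed the same. Without cells carrying leukocyte or reticular markers 29 moved and 19 stayed the same. That setting was run only for exhausted against naive and aged-injury against naive. Depth limits aged and control most, with 58 and 55 cells.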
